A study of Homo sapiens with 12 samples.

Results

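Potassium channel genes were followed through induction of estrogen receptor beta and treatment with estradiol in a triple-negative breast cancer line. The members were all genes whose symbol begins with KCN, then at least 1 further letter, then a digit. There were 97 of them among the 23228 genes measured, and 46 were abundant enough to test, out of 14541 genes tested in all.

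The cells were MDA-MB-468, an established human breast cancer line classed as triple-negative, in which doxycycline switches on ERβ1, the long form of estrogen receptor beta (gene ESR2). All 4 groups were grown without phenol red in stripped serum, at 10% for 3 days beforehand and at 5% during the experiment. Uninduced vehicle cells received no doxycycline and 0.1% DMSO for 4 hours, and uninduced E2 cells received no doxycycline and 10 nM 17β-estradiol (E2) for 4 hours. Induced vehicle and induced E2 cells had the same 4-hour treatments after 48 hours with 50 ng/mL doxycycline. The labels do not state a solvent for E2, so whether E2 cells also received DMSO is not known. Each of the 4 groups had 3 libraries of total RNA. Separate cultures are not stated for the 3, and the p-values therefore cover no more than the spread among these libraries, which may be technical. No group received doxycycline without carrying the ERβ1 construct, so an effect of doxycycline itself and an effect of the receptor cannot be told apart, and the labels do not say whether the line is 1 clone.

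The libraries held 7.89 to 33.3 M expected counts, and the shallowest was uninduced vehicle replicate 1. ESR2 stood at 1.30 ± 0.22 CPM (library-size-normalized counts, SD, n = 3) in uninduced vehicle and at 121 ± 11.7 CPM in induced vehicle cells. The epithelial markers EPCAM, KRT8, KRT18 and EGFR were abundant. Of the receptors that define the triple-negative class, PGR was at 2 counts or fewer in every library, while ESR1 and ERBB2 passed the filter, at 1.07 to 2.10 and 30.6 to 39.0 TPM. ESR1, which encodes estrogen receptor alpha, averaged 4.61 CPM in uninduced vehicle cells and 3.86 CPM in induced vehicle cells. Of 5 fibroblast, 3 endothelial, 4 neuronal and 4 muscle markers, COL1A1, PECAM1, ACTA1 and TNNT2 passed the filter, and DCN, LUM, STMN2 and MYH2 were at 0 throughout. Of 4 leukocyte markers, CD14 and CD68 passed it while PTPRC and CD3E did not. The summed level of 7 epithelial markers was 7455 to 7901 TPM (a per-length level) in induced E2 libraries and 6175 to 6905 TPM in the other groups, and the leukocyte sum was 40.5 to 45.4 TPM against 44.4 to 59.4 TPM. The part of these shifts in the results was not tested. Libraries also differed by replicate number, which goes with a date and a sequencing lane in the deposited file names, and values from a fit that takes the number as a block are given where they change a call.

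Potassium channels let potassium leave or enter cells along its gradient and so set the membrane voltage, cell volume and calcium entry. Their pore subunits fall into voltage-gated channels, inward rectifiers (KCNJ), channels opened by calcium or sodium (KCNMA1, KCNN, KCNT, KCNU1) and tandem-pore channels (KCNK), which carry a pair of pore domains in each subunit and conduct at rest. Auxiliary subunits (KCNAB, KCNE, KCNIP, KCNMB) bind pore subunits and change their gating or transport. In breast epithelium potassium channels have been studied for roles in proliferation and migration, and KCNK5, which encodes the acid-sensitive tandem-pore channel TASK2, is described as an estrogen-responsive gene in breast cancer cells that express estrogen receptor alpha.

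Most potassium channel genes were silent or nearly so. Of the 97, 22 had 0 counts in every library, 14 reached at most 1 to 3 counts, and 15 more stayed at 16 counts or fewer without passing the filter. A count of 0 allows a level of up to 3 counts, which was 0.0896 CPM in the deepest and 0.375 CPM in the shallowest library, counting error only. Members that passed were 15 of 40 voltage-gated genes, 7 of 15 tandem-pore genes, 6 of 16 inward rectifiers, 3 of 8 calcium- or sodium-activated genes and 14 of 16 auxiliary subunits. KCNQ1OT1, a noncoding transcript antisense to KCNQ1, also passed, and KCNQ1DN had 0 counts throughout.

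The message of 1 channel outweighed the rest. Levels of different genes were compared in TPM, a per-length unit taken from the authors' fraction of transcripts. KCNN4, the intermediate-conductance channel opened by calcium, averaged 161 TPM over the 12 libraries and made up 41.1% to 47.5% of the summed level of all 97 genes. KCNK5 came next at 25.7 TPM, followed by the voltage-gated KCNC4 (24.0 TPM) and KCNQ1 (22.6 TPM), KCNG1 (20.9 TPM), and the tandem-pore genes KCNK1 (17.95 TPM), KCNK2 (12.5 TPM) and KCNK6 (10.8 TPM). KCNN4 lay above every other member in every library. The order of the next 4 was not fixed: KCNK5 had the higher mean in both uninduced groups, KCNQ1 and KCNC4 lay within about 1 SD of KCNK5 in induced vehicle cells, and KCNC4 led them in induced E2 cells.

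**Figure D1:**
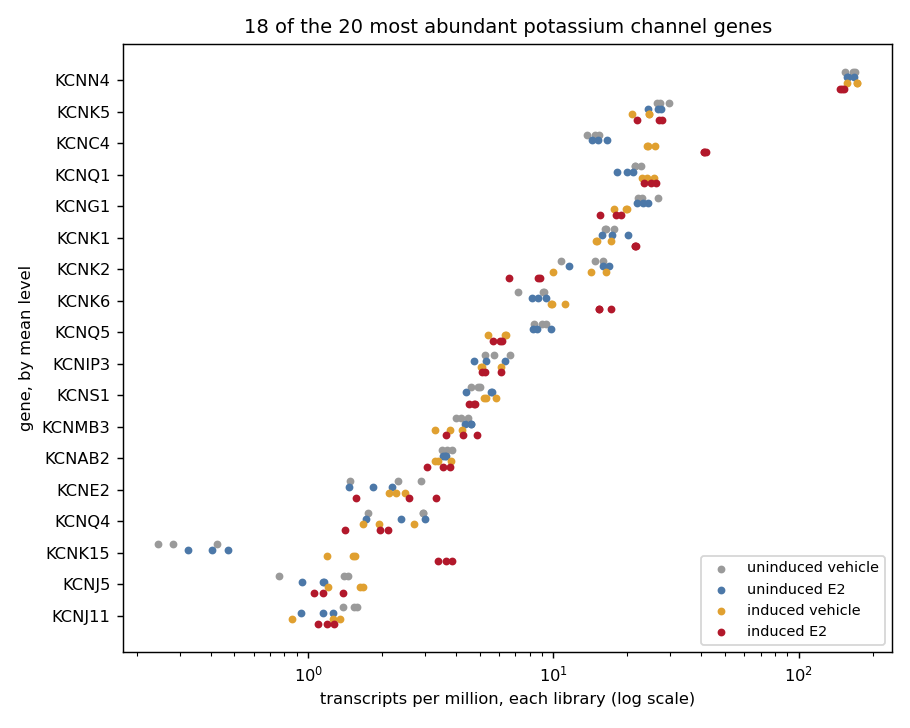
Per-length level (TPM, log axis) of 18 of the 20 most abundant potassium channel genes, with 1 dot for each of the 12 libraries colored by group. KCNN4 lies apart at the top, KCNK5 is second by mean, and the dots of KCNC4 and KCNK15 spread by group while those of KCNN4 and KCNK5 lie close together.

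KCNK5 itself varied little over the 4 groups. Its level was 45.7, 51.8 and 47.8 CPM in the uninduced vehicle libraries numbered 1, 2 and 3. It was 42.2, 48.9 and 47.2 CPM in uninduced E2, 36.7, 43.6 and 43.2 CPM in induced vehicle, and 39.9, 48.7 and 50.1 CPM in induced E2 libraries. Every induced vehicle library lay below every uninduced vehicle library, and the induced E2 libraries overlapped all the other groups. CPM values here are scaled by TMM and serve to compare 1 gene between libraries.

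With E2 in induced cells the KCNK5 difference was 0.16 log2 (SE 0.09, 95% interval −0.03 to 0.35, edgeR adjusted p = 0.270), higher in 3 of 3 same-numbered pairs. With doxycycline alone it was −0.23 log2 (SE 0.09, interval −0.43 to −0.04, adjusted p = 0.209), lower in 3 of 3 pairs. With E2 in uninduced cells it was −0.08 log2 (interval −0.26 to 0.11, adjusted p = 1), and with doxycycline in the presence of E2 it was 0.004 log2 (interval −0.18 to 0.19, adjusted p = 0.985). With the replicate block KCNK5 was called lower with doxycycline alone (−0.22 log2, edgeR adjusted p = 0.00357) and higher with E2 in induced cells (0.17 log2, adjusted p = 0.0107). The change with E2 then also differed between induced and uninduced cells (interaction 0.23 log2, adjusted p = 0.0201 with the block and 0.335 without it). Both block changes were small and opposite in sign, and the comparisons share the induced vehicle libraries.

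Set against the other tested members, KCNK5 ranked 33rd of 46 by size of change with E2 in induced cells and 26th with doxycycline alone, where rank 1 is the largest. Such a rank takes no account of error. Scarce members that were not called ranked above KCNK5, among them KCNE3 with E2 in induced cells (0.40 log2, SE 0.66). The upper bound of the KCNK5 E2 interval, 0.35 log2, lay below the lower bounds of the other tandem-pore genes KCNK3, KCNK15 and KCNK6, at 1.14, 1.03 and 0.48 log2. It overlapped the interval of KCNK1, whose lower bound was 0.34 log2. This sets intervals side by side and is no test between genes.

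After E2, 8 potassium channel genes were called higher and 2 lower in induced cells, of 46 tested, or 21.7%, against 16.5% of all genes tested (9.85% rose and 6.61% fell). The share among members is therefore near that of genes in general. Their median difference was 0.04 log2, against −0.005 log2 over all genes. The comparison asks which genes respond to ligand when ERβ1 is present (n = 3 libraries in each group). By class, 4 tandem-pore genes rose and 1 fell of 7 tested, 3 voltage-gated genes rose and 1 fell of 15, 1 inward rectifier rose of 6, and 0 of 14 auxiliary and 0 of 3 calcium- or sodium-activated genes were called. Of the auxiliary genes 0, and of the calcium- or sodium-activated genes 1 (KCNN4), had an unadjusted p under 0.05. Most auxiliary genes tested were scarce and had wide errors, such as KCNE3 (SE 0.66 log2) and KCNIP2 (SE 0.57 log2). That limits which changes could be called in this class. DESeq2 called 9 members, without KCNJ4, and limma-voom called the 10 that edgeR did.

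Among tandem-pore genes, KCNK3 encodes TASK1, an acid-sensitive background channel. It stood at 1.17, 0.943 and 1.42 CPM in induced vehicle and at 3.41, 4.13 and 3.28 CPM in induced E2 libraries. All 3 E2 libraries lay above the 9 libraries of the other groups, and KCNK3 rose by 1.65 log2 (SE 0.24, edgeR adjusted p = 0.000192).

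KCNK15, which encodes TASK5, a relative for which current has been hard to record, stood at 1.79, 1.41 and 1.84 CPM in induced vehicle and at 4.38, 4.05 and 4.63 CPM in induced E2 libraries. KCNK15 rose by 1.40 log2 (SE 0.17, adjusted p = 4.50e-05), and the groups did not overlap.

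KCNK6 and KCNK1 encode the weak inward rectifiers TWIK2 and TWIK1. KCNK6 stood at 12.1, 12.04 and 13.7 CPM in induced vehicle and 19.4, 19.3 and 21.5 CPM in induced E2 libraries, a rise of 0.67 log2 (SE 0.09, adjusted p = 9.18e-05). KCNK1 stood at 16.9, 14.9 and 14.7 CPM in induced vehicle and 21.9, 21.9 and 22.03 CPM in induced E2 libraries, a rise of 0.51 log2 (SE 0.08, adjusted p = 0.000356). Both genes were higher in every induced E2 library than in any other library.

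KCNK2, which encodes TREK1, a channel opened by stretch and lipids, moved the other way. Its level was 15.4, 22.2 and 25.3 CPM in induced vehicle and 10.3, 13.8 and 14.0 CPM in induced E2 libraries. KCNK2 fell by 0.73 log2 (SE 0.19, adjusted p = 0.0147), and it was lowest in the library numbered 1 of each of the 4 groups. The call ended without induced vehicle replicate 2 (adjusted p = 0.0682) or 3 (0.0803), or without induced E2 replicate 1 (0.0538). With the replicate block KCNK2 fell by 0.72 log2 (adjusted p = 2.43e-08).

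**Figure D2:**
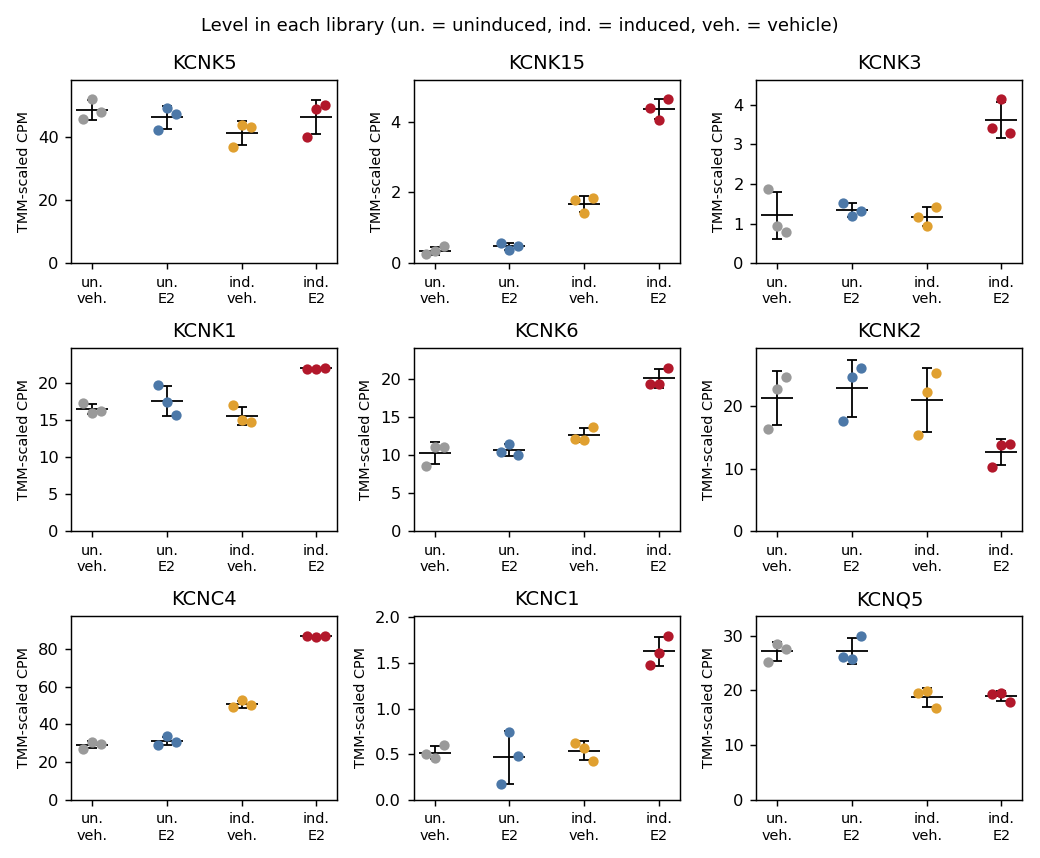
TMM-scaled CPM of 9 potassium channel genes in each library (dots in the order of replicate numbers 1, 2 and 3 within a group), with the group mean and SD as black lines and the axis starting at 0. KCNK5 stays between 36.7 and 51.8 CPM, KCNC4 and KCNK15 step up with induction and again with E2, KCNK3 and KCNK1 are high in induced E2 libraries, and KCNQ5 is lower in all 6 induced libraries.

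Among voltage-gated genes, KCNC4 encodes Kv3.4, a fast-inactivating channel, and had the smallest error of all members called. It stood at 49.2, 52.7 and 50.0 CPM in induced vehicle and at 86.5, 86.4 and 86.8 CPM in induced E2 libraries. KCNC4 rose by 0.77 log2 (SE 0.05, adjusted p = 1.14e-07), with no overlap between groups.

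Its relative KCNC1, which encodes Kv3.1, was much less abundant, at 0.622, 0.566 and 0.421 CPM in induced vehicle and 1.48, 1.61 and 1.80 CPM in induced E2 libraries. KCNC1 rose by 1.61 log2 (SE 0.32, adjusted p = 0.00255), a call that ended without the libraries numbered 3 (0.136).

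KCNF1 encodes a silent subunit that carries no current alone and modifies other voltage-gated channels. It had 9, 6 and 7 counts in induced vehicle and 47, 24 and 23 counts in induced E2 libraries, and rose by 2.04 log2 (SE 0.50, adjusted p = 0.0107). Its group totals, 22 and 94 counts, give a ratio of 4.17 with an exact 95% counting interval of 2.60 to 6.97. Such an interval, here and below, takes no account of the spread between libraries. The edgeR interval was 0.97 to 3.12 log2, and KCNF1 stood at 2.67, 0.944 and 1.03 CPM in the induced E2 libraries. KCNF1 passed the filter through 4 libraries only, all induced, so it had to differ between groups, and its call ended without induced vehicle replicate 2 (adjusted p = 0.0914) or without the libraries numbered 2 (0.117) or 3 (0.0878). KCNG1 and KCNS1, which also encode silent subunits, were at 18.2 and 10.2 CPM in induced E2 cells and were not called in this comparison.

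The inward rectifier KCNJ4, which encodes Kir2.3, had the least secure call. It stood at 0.311, 0.723 and 0.894 CPM in induced vehicle and 1.14, 1.49 and 1.66 CPM in induced E2 libraries, and rose by 1.08 log2 (SE 0.32, adjusted p = 0.0308). DESeq2 did not call it (adjusted p = 0.0531), and the call also ended without induced vehicle replicate 1 (0.0708) or 2 (0.0884) or induced E2 replicate 2 (0.0905) or 3 (0.115), or the libraries numbered 2 (0.237) or 3 (0.174). The groups did not overlap.

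The most abundant member, KCNN4, differed by −0.12 log2 with E2 in induced cells (SE 0.05, interval −0.23 to −0.01, adjusted p = 0.154), and was called lower with the replicate block (adjusted p = 0.0152). Its level was 161, 180 and 177 CPM in induced vehicle and 157, 163 and 159 CPM in induced E2 libraries, which overlap. The block raised the count of members called with E2 in induced cells to 12, by adding KCNK5 and KCNN4, against 23.8% of all genes (13.5% higher and 10.3% lower). Over the later date alone, which holds the libraries numbered 2 and 3, the count was also 12. The count fell to 6 without the libraries numbered 2 and to 5 without those numbered 3, and in both cases KCNK2 lost its call.

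**Figure D3:**
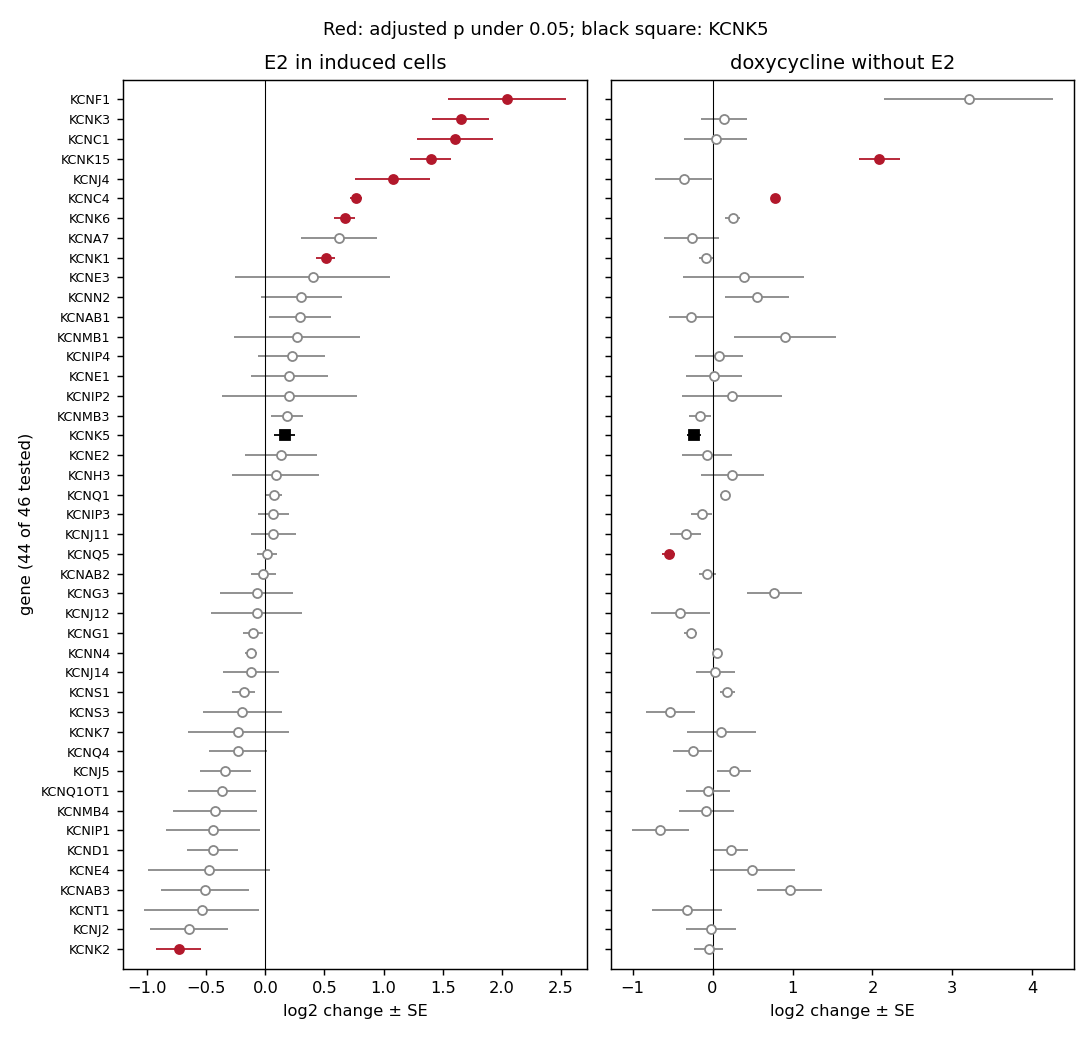
Log2 change ± SE of 44 of the 46 potassium channel genes tested, for E2 in induced cells (left) and doxycycline without E2 (right), in 1 gene order set by the left panel. Red points passed an adjusted p of 0.05, and the black square is KCNK5. On the left 8 of the genes near the top and KCNK2 at the bottom are red, and on the right KCNK15, KCNC4 and KCNQ5 are.

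With doxycycline alone 2 potassium channel genes rose and 1 fell of 46 tested, or 6.52%, against 3.81% of all genes tested (2.44% rose and 1.37% fell). Their median difference was 0.03 log2, against −0.001 log2 over all genes. The question is what ERβ1 induction changes without added ligand, comparing induced with uninduced vehicle cells.

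KCNK15 had 2, 9 and 12 counts in uninduced vehicle libraries, or 0.250, 0.340 and 0.476 CPM, and rose by 2.09 log2 with doxycycline (SE 0.26, adjusted p = 0.000226). Because 1 of those libraries lay under its floor of 3 counts (0.375 CPM), the fold is less exact than its SE. The group totals, 23 and 103 counts, give a ratio of 4.20 with a counting interval of 2.65 to 6.91.

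KCNC4 stood at 27.1, 30.8 and 29.6 CPM in uninduced vehicle cells and rose by 0.78 log2, or 1.72-fold, with doxycycline (SE 0.06, adjusted p = 2.15e-06). Its steps with induction and with E2 were side by side of like size, 0.78 and 0.77 log2, and these comparisons share the induced vehicle libraries.

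KCNQ5, which encodes Kv7.5, a channel of the M-current family, fell by 0.55 log2 (SE 0.08, adjusted p = 0.00113). It stood at 25.2, 28.5 and 27.6 CPM in uninduced vehicle and 19.5, 19.9 and 16.7 CPM in induced vehicle libraries, without overlap. With E2 in induced cells KCNQ5 differed by 0.01 log2 (SE 0.08, adjusted p = 0.952), so its level in induced cells was 18.7 CPM with vehicle and 18.9 CPM with E2. Without the libraries numbered 2 or 3 its adjusted p with doxycycline was 0.0515 or 0.0510.

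The replicate block raised this count to 7, with 3 rises and 4 falls, against 10.0% of all genes (5.54% higher and 4.48% lower). Among those it added were KCNF1, KCNG1 (−0.28 log2, adjusted p = 0.00879) and KCNK5. KCNF1 had 1, 1 and 0 counts in uninduced vehicle libraries, so its fold there rests on 22 against 2 counts, a ratio of 10.3 with a counting interval of 2.53 to 90.4. Because KCNF1 passed the filter through induced libraries only, that filter favored a rise. Over the later date alone the count was 6.

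E2 in uninduced cells moved no potassium channel gene past the threshold. With edgeR 0 of 46 were called, against 0.00% of all genes, and 1 had an unadjusted p under 0.05 (KCNG3, 0.365 CPM with vehicle and 0.735 CPM with E2, adjusted p = 1). The count was 0 with the replicate block, where 3 had an unadjusted p under 0.05, and also 0 with DESeq2 and limma-voom. For abundant members the intervals were narrow. KCNN4 differed by −0.004 log2 (interval −0.11 to 0.11) and KCNC4 by 0.08 log2 (interval −0.04 to 0.21). For scarce members they were wide. KCNF1 had the largest difference, 2.05 log2 (interval −0.56 to 4.66). It had 1, 1 and 0 counts in uninduced vehicle and 3, 5 and 4 counts in uninduced E2 libraries. The E2 difference of KCNF1 in induced cells, 2.04 log2, was of like size.

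With doxycycline in the presence of E2, 9 members rose and 4 fell of 46, or 28.3%, against 28.0% of all genes tested (15% rose and 13.0% fell). With the replicate block 10 rose and 4 fell, against 37.3% of all genes (19.1% higher and 18.2% lower), adding KCNJ4. The comparison shares the induced E2 libraries with the E2 contrast. KCNK15 rose by 3.22 log2 (SE 0.20, adjusted p = 2.67e-08), on 35 and 283 counts, a ratio of 9.45 with a counting interval of 6.64 to 13.8. KCNC4 rose by 1.47 log2, or 2.77-fold (SE 0.05, adjusted p = 7.52e-11), from 31.1 to 86.6 CPM. KCNF1, KCNC1, KCNK3, KCNK6 and KCNK1 rose by 3.19, 1.67, 1.45, 0.91 and 0.33 log2. As KCNF1 passed the filter through 4 induced libraries only, its rise was built in by that filter, and the count of 9 includes it. The call of KCNC1 ended without the libraries numbered 3 (adjusted p = 0.0511), and that of KCNK1 without those numbered 2 (0.105) or 3 (0.145).

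Also higher in that comparison was KCNQ1, which encodes Kv7.1, a channel of epithelia and heart. It rose by 0.37 log2 (SE 0.06, adjusted p = 0.000533), from 28.9 ± 2.48 to 37.4 ± 1.94 CPM (SD, n = 3). KCNQ1 overlaps its antisense transcript KCNQ1OT1, at 0.416 and 0.476 CPM in these groups, and no source states whether counting used strand. KCNN2, the small-conductance calcium-activated channel, rose by 1.15 log2 (adjusted p = 0.0319) on 20 and 38 counts. Its uninduced E2 libraries, at 0.170, 0.239 and 0.358 CPM, all lay below the filter level of 0.419 CPM. KCNN2 thus passed the filter through other groups, which favored a rise here. DESeq2 did not make the call (0.125), and it was also lost with no filter. The KCNN2 call ended too without uninduced E2 replicate 1 or 2 or induced E2 replicate 1 or 3 (0.0582 to 0.116), or any 1 replicate number (0.0826 to 0.219). KCNK2, KCNQ5 and KCNG1 fell by 0.85, 0.53 and 0.37 log2. The call of KCNK2 ended without the libraries numbered 2 (adjusted p = 0.0743), and that of KCNG1 without those numbered 2 (0.0599) or 3 (0.0508).

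Whether the E2 change differs between induced and uninduced cells was tested by the interaction. It was called for KCNC4 (0.69 log2, SE 0.08, adjusted p = 5.62e-05), KCNK6 (0.66 log2, SE 0.13, adjusted p = 0.00560), KCNK1 (0.41 log2, SE 0.11, adjusted p = 0.0375) and KCNK3 (1.31 log2, SE 0.37, adjusted p = 0.0439), all 4 with the larger change in induced cells. That is 8.70% of 46 members, against 8.47% of all genes (5.66% higher and 2.81% lower). The calls of KCNK1 and KCNK3 ended when most single libraries were left out (adjusted p up to 0.104 and 0.138) and under upper quartile scaling (0.0577 and 0.0504), and held with the replicate block (0.00331 and 0.0191). Without the libraries numbered 2 or 3 only KCNC4 stayed called: the adjusted p was 0.132 or 0.178 for KCNK6, 0.408 or 0.493 for KCNK1, and 0.496 or 0.133 for KCNK3. With the block the count was 8, against 14.7% of all genes (8.86% higher and 5.88% lower), with KCNC1, KCNK5 and KCNK2 among those added. KCNK15, which rose with E2 in induced cells, had an interaction of 1.13 log2 and was not called (adjusted p = 0.0781).

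Summed by class, the levels moved less than single genes did. Voltage-gated genes summed to 91.7 ± 2.55 TPM in uninduced vehicle, 95.4 ± 3.74 in induced vehicle and 107 ± 1.55 TPM in induced E2 cells (SD, n = 3). Tandem-pore genes summed to 68.6 ± 4.20, 65.7 ± 4.42 and 77.2 ± 5.48 TPM in the same groups. Calcium- or sodium-activated genes, mostly KCNN4, had their lowest mean sum in induced E2 cells, at 164 ± 8.10, 169 ± 9.12 and 152 ± 2.66 TPM. Auxiliary subunits stayed between 18.6 and 22.1 TPM and inward rectifiers between 4.65 and 6.45 TPM over all 12 libraries. These sums describe the libraries and carry no test.

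**Figure D4:**
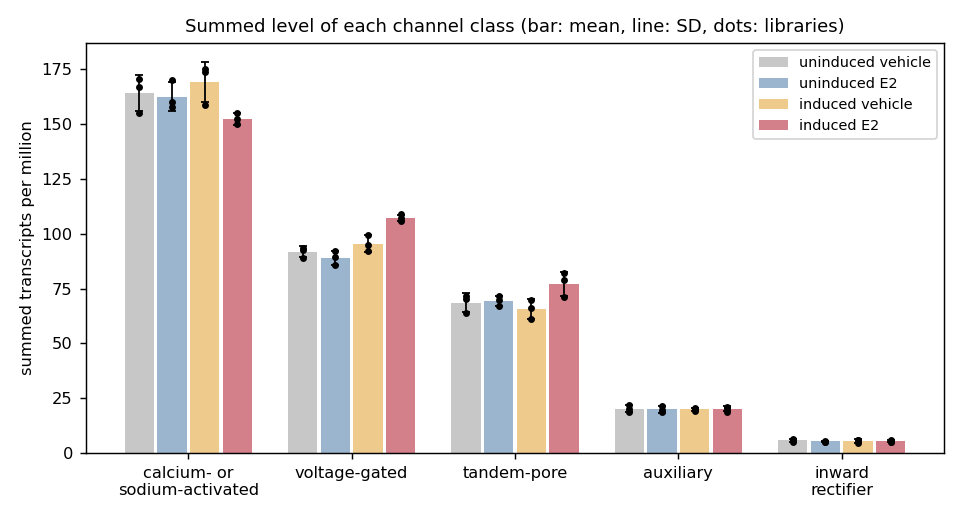
Summed TPM of the potassium channel genes of each class in the 4 groups, with bars for group means, lines for SD and dots for the 3 libraries, on an axis that starts at 0. The calcium- or sodium-activated sum, mostly KCNN4, is the tallest at 150 to 175 TPM, and the voltage-gated sum is highest in induced E2 cells.

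Promoter sequence was examined for the members matched in RefSeq (GRCh38.p14), 72 of 97 genes and 32 of the 46 tested, over the 250 bases before each gene's start. The counts themselves were made on hg19. KCNK15 was not among those matched. The promoters of KCNK5, KCNF1, KCNC4 and KCNK6 are shown because KCNK5 is the estrogen target set against the rest, and the others are members called higher with E2. Capitals mark the estrogen response half-site GGTCA and the Sp1 box GGGCGG, each on either strand. Each sequence runs 5′ to 3′ on the gene's strand.
KCNK5, chr6:39229476-39229725, minus strand: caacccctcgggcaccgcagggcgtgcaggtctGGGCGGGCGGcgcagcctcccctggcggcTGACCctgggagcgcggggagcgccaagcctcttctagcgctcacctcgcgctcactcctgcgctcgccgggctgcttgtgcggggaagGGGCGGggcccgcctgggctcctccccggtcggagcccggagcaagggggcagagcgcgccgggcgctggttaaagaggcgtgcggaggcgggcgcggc
KCNF1, chr2:10911684-10911933, plus strand: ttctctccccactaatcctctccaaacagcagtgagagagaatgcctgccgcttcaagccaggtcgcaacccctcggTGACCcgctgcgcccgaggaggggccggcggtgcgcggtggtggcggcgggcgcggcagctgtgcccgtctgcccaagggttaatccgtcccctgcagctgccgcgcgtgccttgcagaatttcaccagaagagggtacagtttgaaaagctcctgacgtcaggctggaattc
KCNC4, chr1:110210064-110210313, plus strand: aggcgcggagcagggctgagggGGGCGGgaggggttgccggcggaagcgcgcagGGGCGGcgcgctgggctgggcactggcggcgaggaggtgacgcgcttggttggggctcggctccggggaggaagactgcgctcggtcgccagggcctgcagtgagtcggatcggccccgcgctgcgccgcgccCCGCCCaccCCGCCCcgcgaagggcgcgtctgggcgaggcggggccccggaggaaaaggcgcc
KCNK6, chr19:38319595-38319844, plus strand: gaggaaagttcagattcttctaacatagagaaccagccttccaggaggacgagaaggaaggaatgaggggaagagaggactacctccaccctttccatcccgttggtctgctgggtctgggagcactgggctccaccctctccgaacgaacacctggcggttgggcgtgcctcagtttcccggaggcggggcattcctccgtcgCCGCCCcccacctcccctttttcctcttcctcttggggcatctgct

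KCNK5 holds 1 half-site and 3 Sp1 boxes. KCNF1 holds 1 half-site and no Sp1 box, KCNC4 holds 4 Sp1 boxes and no half-site, and KCNK6 holds 1 Sp1 box. The full palindrome GGTCANNNTGACC was in 0 of the 72 member promoters and in 0.0399% of 35116 promoters of the same length. A half-site was in 17 of the 72 (23.6%), against 32.6% of all promoters, and the full palindrome contains the half-site on each strand. The AP-1 letters TGANTCA, searched on both strands, were in 4 (5.56%), against 6.57%, and an Sp1 box was in 41 (56.9%), against 42.6%. KCNJ4 was the only called member matched with an AP-1 match. These matches describe letters in a short window and draw nothing about the binding of any factor.

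Neighboring genes were looked up for the 14 members called in any comparison and KCNK5, by order along the chromosome in RefSeq. Of 24 such neighbors that were tested, 5 were called with E2 in induced cells, against 16.5% of all genes. They included WISP2, which lies before KCNK15 and encodes a secreted matricellular protein, at 3.01 log2 (edgeR adjusted p = 2.35e-07), and RIMS4, which overlaps KCNK15 in that annotation, at 1.13 log2 (3.74e-07). Because RIMS4 and KCNK15 overlap, the counts of both are uncertain in every comparison where counting did not use strand. SLC6A17, next to KCNC4, rose by 0.59 log2 (6.90e-07), and C2orf18, next to KCNK3, by 0.81 log2 (6.59e-08). KCTD3, next to KCNK2, rose by 0.41 log2 while KCNK2 fell. With doxycycline alone 4 of the 24 were called, all higher, against 3.81% of all genes. These were RIMS4 at 1.37 log2 (edgeR adjusted p = 2.83e-06), WISP2 at 2.02 log2 (0.0100), SLC6A17 at 0.46 log2 (7.77e-05) and C2orf18 at 0.33 log2 (0.00242). The neighbors of KCNK5 were C6orf64 at −0.01 log2 and KCNK17, with 0 counts in every library.

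Other genes of potassium handling were taken from a list of 39 channel partners, sodium-potassium pump subunits and cation-chloride cotransporters, of which 25 were tested. Of these, 2 were higher and 1 was lower after E2 in induced cells, against 16.5% of all genes called, at a median of −0.05 log2. The replicate block gave 3 higher and 2 lower, against 23.8% of all genes. The pump subunits ATP1B1 and ATP1B3 rose by 0.22 and 0.13 log2 (edgeR adjusted p = 0.00167 and 0.0254). SLC12A2, the sodium-potassium-chloride cotransporter that loads cells with potassium, fell by 0.48 log2, from 664 to 475 CPM (adjusted p = 0.0216).

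With doxycycline alone 1 partner rose and 1 fell: FXYD3, a regulator of the pump, rose by 0.41 log2 (edgeR adjusted p = 0.000226), and ATP1B3 fell by 0.34 log2 (8.34e-05), against 3.81% of all genes called. The replicate block gave 1 rise and 6 falls there, against 10.0%. With doxycycline in the presence of E2, 1 rose and 5 fell, or 1 and 9 with the block, against 28.0% and 37.3% of all genes called, among them FXYD3 at 0.52 and ATP1B3 at −0.24 log2. With E2 in uninduced cells 0 of 25 were called by edgeR, with or without the block. For the interaction 0 of 25 were called, against 8.47% of all genes. The block gave 1 higher and 2 lower there, against 14.7%. In bulk RNA a change in the level per cell and a change in the share of cells that express a gene cannot be told apart, for these genes and for the channels alike.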

How the data were processed

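RNA sequencing of 12 libraries was analysed from the deposited per-library files, whose first value column holds the authors' RSEM expected counts and whose other value column holds the authors' fraction of transcripts per gene, which sums to 1. RSEM 1.1.16, DESeq 1.7.10 and hg19 are named in the submitters' processing notes, without their roles. No source used here names the aligner. Depth was 7.89 to 33.3 M counts per library.

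After rounding, the expected counts went into edgeR 4.0.16 (R 4.3.3): filterByExpr (minimum count 10, minimum total 15), TMM scaling, a quasi-likelihood fit of 4 group means to all 12 libraries (8 residual degrees of freedom), Benjamini-Hochberg adjustment over 14541 genes in each of 5 contrasts, and calls at an adjusted p under 0.05. SEs are the log2 change divided by the square root of F, and intervals are 95%. Fractions were rescaled to TPM, used for levels between genes with no test. On simulated counts with 200 changed genes for E2 in induced cells, 67.2%, 88.1% and 95.5% of 1.5-, 2- and 4-fold changes were recovered over 14541 genes. Of the 183 calls made there, 16 were of unchanged genes. The simulated counts held no difference between replicate numbers, and recovery was taken over genes of all levels, not for scarce members.

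Deviations from the group means were correlated between libraries that share a number (0.104 to 0.464, median 0.246, 18 pairs, 12376 genes). Between libraries of different numbers the correlation was −0.427 to 0.278 (median −0.220, 36 pairs), so the ranges overlap. The main fit held no term for the number, which was taken to pair the libraries in the replicate block only. The common coefficient of variation between libraries in edgeR was 2.9% with the block and 5.34% without it. The replicate block was an alternative, as were DESeq2 1.42.0, limma-voom (3.58.1), other scalings and filters, only the groups compared, and each library or number left out. Number 1 has the earlier file date with 1 library per group, which allows no test.

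The members and lists were chosen with earlier results of these data known. Named were KCNK5, every member called in a comparison, the 8 most abundant members and up to 4 others per class, plus up to 3 called partners per comparison. Some items that the rule selects are not reported here, though the counts include them. KCNG3, KCNQ1OT1 and the neighboring genes were named after their values were seen. Genes with near-identical relatives, such as KCNJ12 and KCNJ18, have uncertain counts.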

Additional observations from a re-analysis of the deposited data

Results flagged for a closer look

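The E2 change differed between induced and uninduced cells for 4 potassium channel genes by edgeR's interaction test, each with the larger change in induced cells. The difference was 0.69 log2 for KCNC4, where E2 gave 0.77 log2 in induced and 0.08 log2 in uninduced cells. It was 0.66 log2 for KCNK6 (0.67 and 0.01 log2), 0.41 log2 for KCNK1 (0.51 and 0.10 log2) and 1.31 log2 for KCNK3 (1.65 and 0.35 log2). Of these, KCNC4 kept the call in all 22 alternatives, while KCNK6, KCNK1 and KCNK3 lost it in 2, 13 and 12 of them.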

How the results depend on the processing

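Directions were stable: of 30 calls of named members other than KCNK5, none changed sign over 683 alternative values, while 14 lost the call in at least 1 alternative (62 values). Calls of KCNC4, KCNK15, KCNK6, KCNK3 and KCNQ1 outside the interaction held in every alternative run. The number of members called with E2 in induced cells (10) was 5 to 12 when libraries or replicate numbers were left out. For doxycycline alone (3) it was 7 with the replicate block and 2 to 6 with libraries left out, and for the interaction (4) it was 8 with the block, 2 under upper quartile scaling and 1 to 7 with libraries left out. With doxycycline in the presence of E2 (13) it was 9 to 14, and with E2 in uninduced cells 0 throughout. For KCNK5 the replicate block gave calls at 0.17 log2 with E2 in induced cells, −0.22 log2 with doxycycline alone and 0.23 log2 for the interaction. With libraries left out these ran from 0.10 to 0.25, from −0.28 to −0.17 and from 0.17 to 0.33 log2, and KCNK5 was called without the libraries numbered 1 in each and, with E2 in induced cells, without induced E2 replicate 1 (adjusted p = 0.0487). The number of libraries, and counts of at most 25 per library for KCNF1, KCNN2, KCNC1 and KCNK15 in uninduced cells, limit what can be seen. The cause of these differences was not tested.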
